A study of Mus musculus with 4 samples.

Results

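The nuclear genes of the mitochondrial respiratory chain were followed here across 4 microarrays of mouse bone marrow cultures. They were taken by gene symbol: every gene whose symbol starts with Nduf, Uqcr, Cox4i, Cox5, Cox6, Cox7, Cox8 or Atp5, together with Sdha, Sdhb, Sdhc, Sdhd, Cycs and Cyc1, read at its brightest probe set with a single gene symbol. The rule used no measured difference and found 91 of the 19938 genes measured. On at least 1 array, 87 of the 91 genes had a signal of 30.96 or more, which is the median over every probe set and array.

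Marrow cells of B6 background, either wild type (Bach1 +/+) or labelled Bach1 knockout (Bach1 -/-), had been grown for 6 days with 20 ng/ml GM-CSF, a growth factor that yields macrophages and dendritic-type cells, and were then given either heme at 40 µM (written with a lower-case m in the labels) or the vehicle alone, ammonium hydroxide in saline. RNA was taken 24 hours later from the cells that still adhered, so floating cells are not represented. Each genotype was thus measured with vehicle and with heme, on 1 array each. Without replicates, none of the differences carries an error or a p-value.

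The respiratory chain passes electrons from NADH (complex I) and succinate (complex II) through ubiquinone to complex III, then by the small heme protein cytochrome c to complex IV, which reduces oxygen. Complexes I, III and IV pump protons across the inner mitochondrial membrane, and complex V, the ATP synthase, uses the gradient to make ATP. Most subunits are nuclear genes, and several proteins of the chain carry heme. Bach1 is a transcriptional repressor that heme releases from DNA. In macrophages and dendritic cells, activation is known to shift the balance between oxidative phosphorylation and glycolysis.

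By role, the members were 6 core and 28 accessory subunits of complex I, 7 complex I assembly factors, the 4 subunits of complex II, 9 of complex III, cytochrome c itself, 11 of complex IV, 17 of complex V and 8 isoforms known mainly from particular tissues or conditions. Ndufa4, named for complex I but now assigned to complex IV, was counted with complex IV. The 76 genes other than assembly factors and restricted isoforms are called the subunit genes below. Genes are counted as higher or lower by 1.5-fold where the signals of 2 arrays stood at least that far apart (0.58 on the log2 scale) and the brighter signal was at or above the median of all values, called the level below. A looser limit of 0.32 on the log2 scale is given beside it.

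As facts of the whole series, median signals of the 4 arrays lay between 30.4 and 31.4. Bach1 itself had signals of 212 and 264 on the wild-type vehicle and heme arrays and of 211 and 204 on the labelled knockout ones. Since the position of its probes relative to the deletion is unknown here, these signals check nothing about the labels. Hmox1, the heme oxygenase gene that Bach1 is known to repress, read 1827 and 9881 on the wild-type arrays and 9047 and 10330.5 on the labelled knockout ones, so that it was 4.95-fold higher in the labelled knockout in vehicle. Of 13 macrophage markers, 12 reached the level on at least 1 array, all but Cd163, while of 12 dendritic cell markers Flt3, Zbtb46, Xcr1 and Cd209a did not. None of the 10 B, T and NK cell markers or the 9 mast cell and basophil markers reached it.

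The first question was how cells lacking Bach1 differ when no heme is added, from the vehicle arrays of the 2 genotypes. The subunit genes were lower as a group on the array labelled knockout: 66 of 76 had a lower signal there than in wild type (52.3% of genes at level and 61.4% of genes in the members' signal range did), with a median log2 difference of -0.18 and quartiles of -0.28 and -0.10. Over all genes at level on the brightest array the median was -0.01, and over the 2332 genes whose mean signal lay between the quartiles of the members it was -0.06. The shift was broad and small. Of the 87 members at level, 3 were lower by 1.5-fold, the complex II anchor Sdhc, the complex I subunit Ndufa9 and the ATP synthase subunit Atp5md, where 4.31% of all genes at level were lower by that much. Another 2 were higher, the isoforms Cox6b2 and Ndufa4l2, against 3.25% of all genes. At the looser limit, 15 members were lower and 5 higher, against 14.3% and 12.2% of genes. None of the members differed by 2-fold in a comparison of 2 arrays; in vehicle 0.525% of genes at level were that much higher and 1.14% lower.

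The lower signals ran through every complex. In complex V, 17 of 17 genes were lower (median -0.27). In complex IV, 10 of 11 were lower (median -0.17), in complex II 4 of 4 (median -0.33) and in complex III 7 of 9 (median -0.24). Complex I had 27 of 34 lower, 6 of 6 core subunits (median -0.12) and 21 of 28 accessory subunits (median -0.14). The assembly factors of complex I did not share this, with 4 of 7 lower and a median of -0.08. No complex changed the sign of its median when the arrays were scaled in other ways, and the median of the subunit genes lay between -0.18 and -0.11. Counts were somewhat smaller with quantile normalization again and with lowess centring. In each, 62 of 76 subunit genes were lower, 16 of 17 in complex V, 9 of 11 in complex IV and 3 of 4 in complex II. The complex V median was then -0.18 and -0.20.

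**Figure D1:**
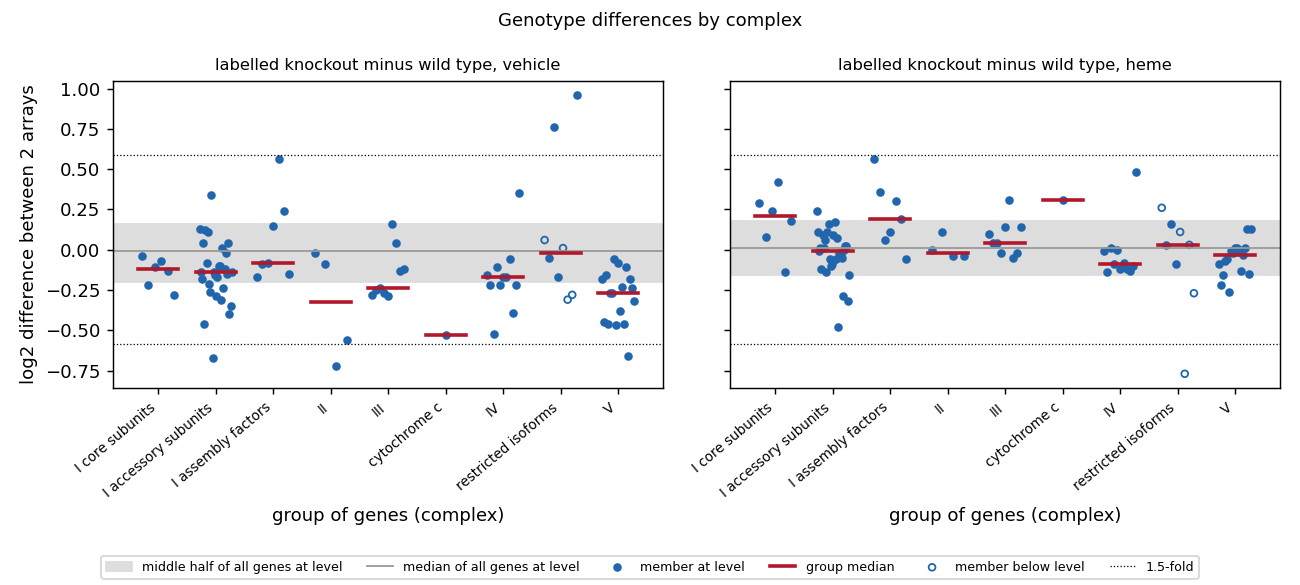
Log2 difference between the array labelled knockout and the wild-type array (vertical axis) for each member, grouped by complex (horizontal axis), in vehicle (left) and with heme (right). Points are genes, open points lie below the level, red bars are group medians, the grey band spans the quartiles of all genes at level and dotted lines mark 1.5-fold. In vehicle all 17 complex V genes lie below 0, and with heme the medians of complexes II to V lie between -0.09 and 0.04.

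Among the complex II genes the difference sat in the membrane anchors. Sdhc, which with Sdhd holds the heme of complex II, read 1085 with vehicle and 944 with heme in wild type, and 661 and 918 likewise in the labelled knockout, and was 1.64-fold lower in the knockout comparison in vehicle. Sdhd read 345, 285, 234 and 277 on the same arrays in that order (as do all sets of 4 signals here), a log2 difference of -0.56, just outside the 1.5-fold rule. For both, the labelled knockout vehicle array was the lowest of the 4 and the wild-type vehicle array the highest. The catalytic subunits stayed nearly level: Sdha, the flavoprotein that oxidises succinate, read 399.7, 384, 393 and 385, and Sdhb, the iron-sulfur subunit, 278, 247, 261 and 267.

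In complex V, Atp5md, a small membrane subunit of the synthase, read 1165 with vehicle and 900.3 with heme in wild type, and 739 and 907 likewise in the labelled knockout, 1.58-fold lower in the labelled knockout in vehicle. Its other 2 probe sets gave log2 differences of -0.57 and -0.52 in that comparison, and with the mean of its probe sets it fell just short of 1.5-fold (-0.58). The catalytic beta subunit Atp5b read 790.0, 686, 579 and 590.5, and the catalytic alpha subunit Atp5a1 read 1273, 1060.5, 1122 and 995. Signals of Atp5d, the delta subunit of the rotor stalk, were 666, 780.3, 484 and 744. Atp5g2, which encodes a copy of the membrane ring subunit c, had the smallest vehicle difference of the complex, at -0.06, whereas Atp5g3, another gene for the same ring protein, stood at -0.47.

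In complex I, Ndufa9, an accessory subunit at the joint of the peripheral and membrane arms, read 214 with vehicle and 183 with heme in wild type, and 135 and 177 likewise in the labelled knockout, 1.59-fold lower. This call did not hold with 32 added to each signal before log2 (-0.56). Ndufa13 (317, 261, 229.7 and 239) and Ndufs5 (723, 697, 549 and 708) were lower by 1.38-fold and 1.32-fold. A few accessory subunits went the other way, the largest being Ndufa8 (178, 189, 226 and 212), which was 1.27-fold higher. The core subunits ranged from -0.28 for Ndufv2, an iron-sulfur subunit of the NADH-oxidising module, to -0.04 for Ndufs1, the largest iron-sulfur subunit. Ndufv1, which binds the flavin and NADH, read 142, 134, 129.8 and 122.

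In complex III the vehicle differences ran from -0.29 for the core protein Uqcrc1 to 0.16 for its partner Uqcrc2. The cytochrome c1 gene Cyc1, whose protein carries a covalently bound heme, read 189 with vehicle and 174 with heme in wild type, and 155 and 187 likewise in the labelled knockout. The Rieske iron-sulfur protein gene Uqcrfs1 stayed close on all arrays, at 394, 396, 405 and 381. Cycs, cytochrome c, read 239.8, 182, 166 and 226, 1.45-fold lower in vehicle.

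In complex IV, Cox5b, a zinc-binding subunit on the matrix side, read 1025 with vehicle and 904 with heme in wild type, and 718 and 913 likewise in the labelled knockout, 1.43-fold lower. Its second probe set gave -0.54 against -0.52. Cox7b was next, at 1734, 1543, 1322 and 1413 (-0.39 in vehicle). Its second, weaker probe set gave -0.64 there, past 1.5-fold. Cox4i1, the main isoform of the regulatory subunit 4, read 1626, 1589, 1455 and 1576. Ndufa4 stood alone in the other direction: its signals of 459.5, 589, 586 and 823 put wild-type vehicle lowest and labelled knockout heme highest.

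**Figure D2:**
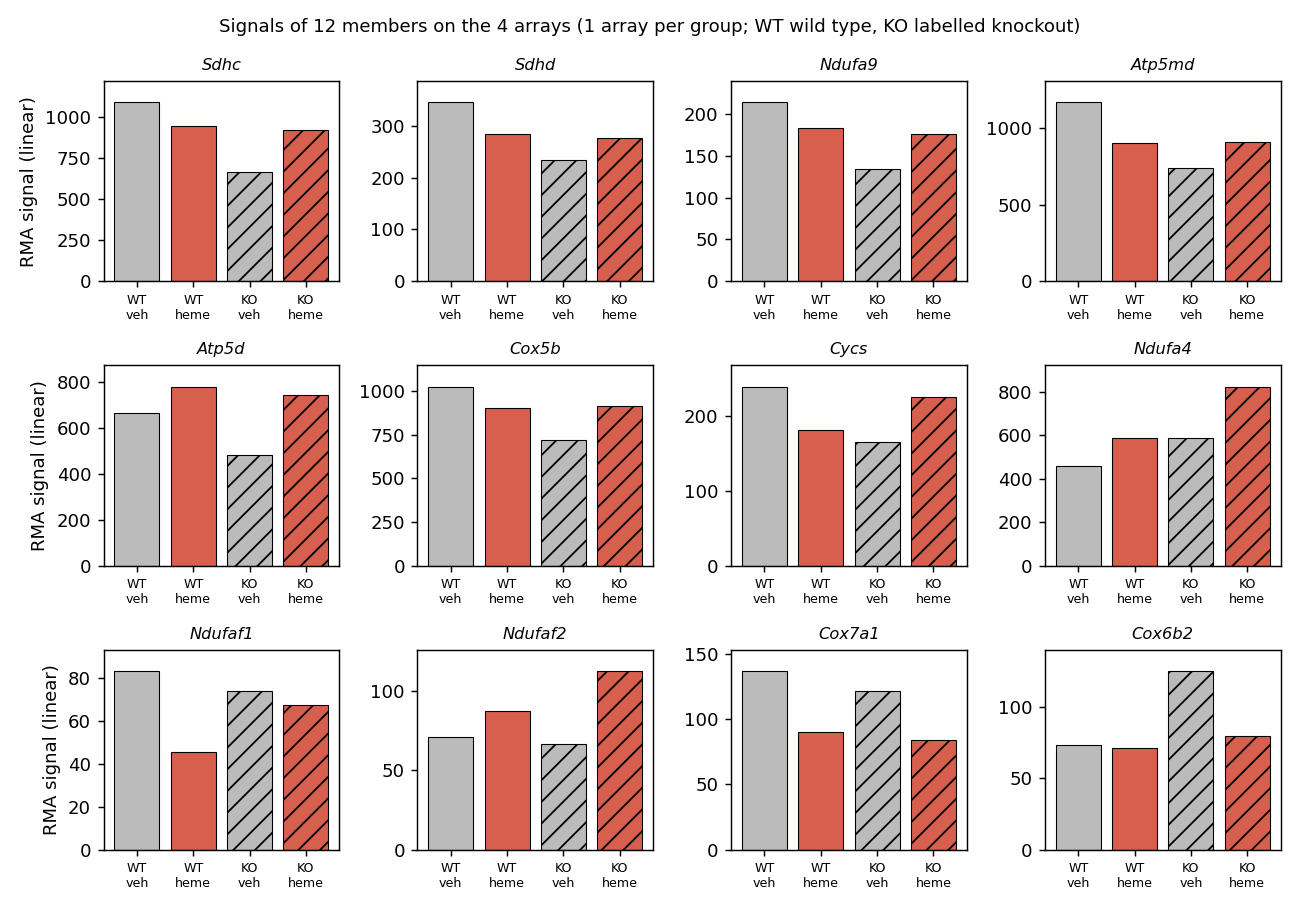
Linear RMA signal (vertical axis, from 0) of 12 members on the 4 arrays (horizontal axis; WT wild type, KO labelled knockout, veh vehicle; 1 array each). Sdhc, Sdhd, Ndufa9, Atp5md, Cox5b and Cycs are lowest in labelled knockout vehicle, Ndufa4 is highest in labelled knockout heme at 823, and Cox7a1 is lower on both heme arrays.

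With heme in both cultures, the genotype comparison looked different. Of the 76 subunit genes, 39 were lower and 37 higher on the array labelled knockout, and the median was -0.01 (quartiles -0.09 and 0.09); quantile normalization of the values again gave 0.02. None of the 86 members at level was higher or lower by 1.5-fold, where 3.38% of all genes at level were higher and 3.43% lower. The nearest were Ndufaf1 (0.56) and Ndufa4 (0.48). At the looser limit 4 members were higher and 1 lower, against 12.5% and 11.4% of genes, and none at 2-fold, against 0.519% and 0.973%. Cox8b, a cytochrome oxidase isoform of heart and muscle, differed by -0.77 but read between 15.7 and 26.9 on all arrays, below the level. Sdhc (-0.04), Sdhd (-0.04), Atp5md (0.01), Ndufa9 (-0.06) and Cox5b (0.01), all lower by 1.43-fold or more in vehicle, lay close to 0. Cycs, 1.45-fold lower in vehicle, did not, and was higher in the labelled knockout with heme (0.31). The core subunits of complex I had a median of 0.21, led by the iron-sulfur subunit Ndufs8 (0.42; signals of 150.2, 136, 143 and 182), with only Ndufv1 lower (-0.14). Complex IV had 8 of 11 lower, with a median of -0.09 and Cox5a lowest (-0.14; 1521, 1457, 1308 and 1325). In complex V the differences ran from -0.26 for Atp5g1, another ring subunit gene (703, 751, 583 and 628), to 0.13 for Atp5mpl, a small membrane subunit (2051, 2001, 1808 and 2197). Among members at level the largest decrease was that of Ndufb6, an accessory subunit of the complex I membrane arm (-0.48; 538, 498, 434 and 356).

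These comparisons share no array. Of the 76 subunit genes, 37 were lower in the labelled knockout under both treatments (48.7%), 29 were lower in vehicle and higher with heme (38.2%) and 2 the reverse (2.63%). Over genes at level those shares were 28.7%, 23.6% and 19.0%. Across the 91 members the differences in vehicle and with heme correlated with r = 0.26, and across all genes at level with r = 0.36, as a description over genes that share the same 4 arrays.

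The order of the arrays shows where the vehicle difference lay. The labelled knockout vehicle array was the lowest of the 4 for 46 of 76 subunit genes (60.5%), against 27.2% of genes at level and 34.1% of genes with signals in the quartile range of the members. The wild-type vehicle array was the highest for 44 of 76 (57.9%), against 26.9% and 31.7%. In complex V the labelled knockout vehicle array was lowest for 15 of 17 genes and in complex IV for 9 of 11, while in complex I it was lowest for 15 of 34. The heme arrays lay between: wild-type heme was lowest for 11 subunit genes and highest for 12, and labelled knockout heme for 13 and 14. Each group holds 1 array, so a property of an array and a property of its group cannot be told apart.

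**Figure D3:**
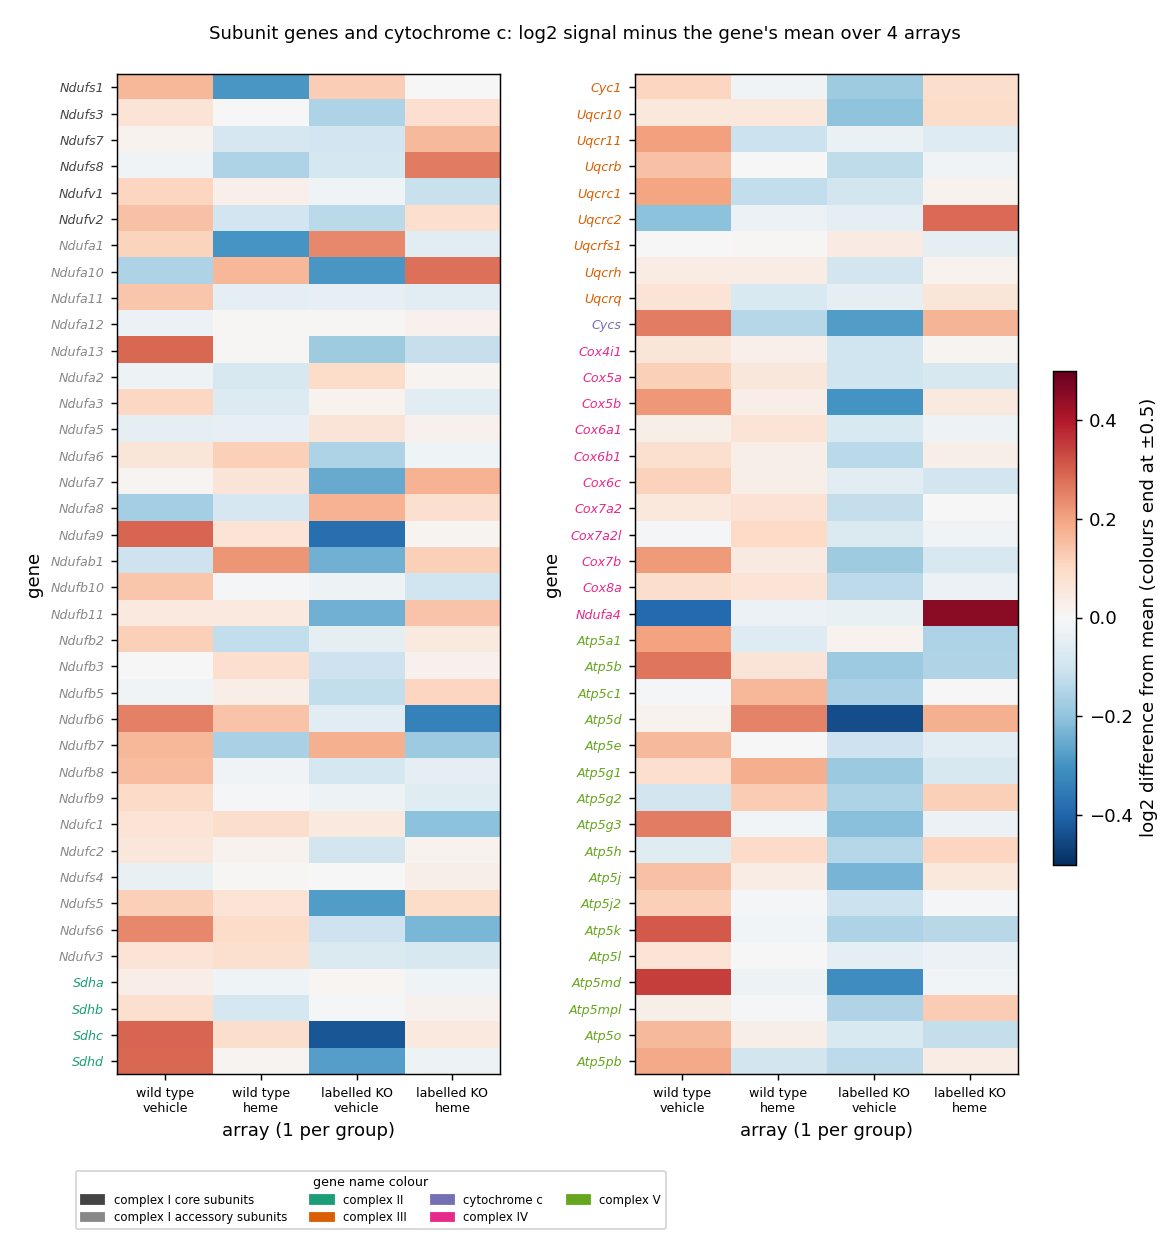
Log2 signal of each of the 76 subunit genes minus its own mean over the 4 arrays, as colour (red above, blue below, ending at ±0.5), with genes as rows ordered by complex and the 4 arrays as columns. Blue prevails in labelled knockout vehicle, lowest for 46 of 76 genes, and red in wild-type vehicle, highest for 44.

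The response to heme was then taken in wild-type cells, which have Bach1. Subunit genes were slightly lower with heme: 53 of 76 lay below 0 (69.7%). Of genes at level 51.1% did, and of genes in the members' signal range 53.8% did. The subunit median was -0.08 (quartiles -0.18 and 0.02), against -0.01 and -0.02 for those sets of genes. With lowess centring of the ratios on signal, 44 of 76 lay below 0 and the median was -0.04. None of the 86 members at level was higher by 1.5-fold, where 4.99% of all genes at level were, and 2 were lower, where 4.73% were: the assembly factor Ndufaf1 and the isoform Cox7a1. Both calls were lost with 32 added to each signal (-0.57 and -0.47). At the looser limit, 3 members were higher and 8 lower, against 14% and 15% of genes, and at 2-fold none was, against 1.17% and 0.891%.

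By complex, the wild-type medians were -0.18 for complex II (4 of 4 lower), -0.13 for complex V (12 of 17 lower), -0.12 for complex III (7 of 9) and for the complex I core (6 of 6), -0.05 for complex I accessory subunits (16 of 28) and -0.03 for complex IV (7 of 11). The last pair turned positive, to 0.01 and 0.02, with lowess centring. Ndufs1 had the largest decrease among core subunits, from 143 to 104, and Ndufs3 the smallest, from 359 to 343. Cycs was lower by 1.32-fold (239.8 and 182) and Ndufa1, a small subunit needed to assemble the membrane arm, by 1.33-fold (873 and 658). Among subunit genes the increases were led by Ndufa4 (0.36), Ndufa10 (0.32) and the mitochondrial acyl carrier protein gene Ndufab1 (0.32). The wild-type heme response and the genotype comparison in vehicle both use the wild-type vehicle array, so a high signal there enters both.

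The response to heme in cells labelled Bach1 knockout addresses what heme does in the absence of Bach1. Here the subunit genes were mostly higher with heme: 55 of 76 lay above 0 (72.4%). Of genes at level 52.2% did, and of genes in the members' signal range 56.3% did. The subunit median was 0.11 (quartiles -0.02 and 0.26), against 0.02 and 0.03 for those sets of genes. With quantile normalization applied again 31 of 76 lay below 0 in place of 21, and the median was 0.06. Of 87 members at level, 2 were higher by 1.5-fold, the ATP synthase gene Atp5d (1.54-fold) and the assembly factor Ndufaf2 (1.69-fold), where 5.03% of all genes at level were. Another 2 were lower, Cox6b2 and Ndufa4l2, where 3.07% were. At the looser limit, 16 members were higher and 4 lower, against 15.1% and 11.9% of genes, and at 2-fold none was, against 1.2% and 0.452%. The Atp5d call did not hold with quantile normalization applied again (0.57), nor those of Ndufaf2 (0.55), Cox6b2 (-0.50) and Ndufa4l2 (-0.33) with 32 added to each signal.

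The labelled knockout medians were 0.23 for the complex I core (4 of 6 higher), 0.16 for complex V (15 of 17 higher), 0.14 for complex II (3 of 4), 0.11 for complex III (7 of 9), 0.10 for complex IV (10 of 11) and 0.02 for complex I accessory subunits (15 of 28 higher). The last turned to -0.03 with quantile normalization applied again. Sdhc was 1.39-fold higher (661 and 918), Cycs 1.36-fold (166 and 226) and Cox5b 1.27-fold (718 and 913). Ndufa10 (369 and 545) lay just outside the rule at a log2 difference of 0.56. Within complex IV, Cox6c alone was lower (-0.04; 2817 and 2749.7). Among the lower subunit genes were Ndufb7 (-0.36; 966 and 751), Ndufa1 (-0.29) and Ndufb6 (-0.28). This comparison and the genotype comparison in vehicle both use the labelled knockout vehicle array, so a low signal there enters both.

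**Figure D4:**
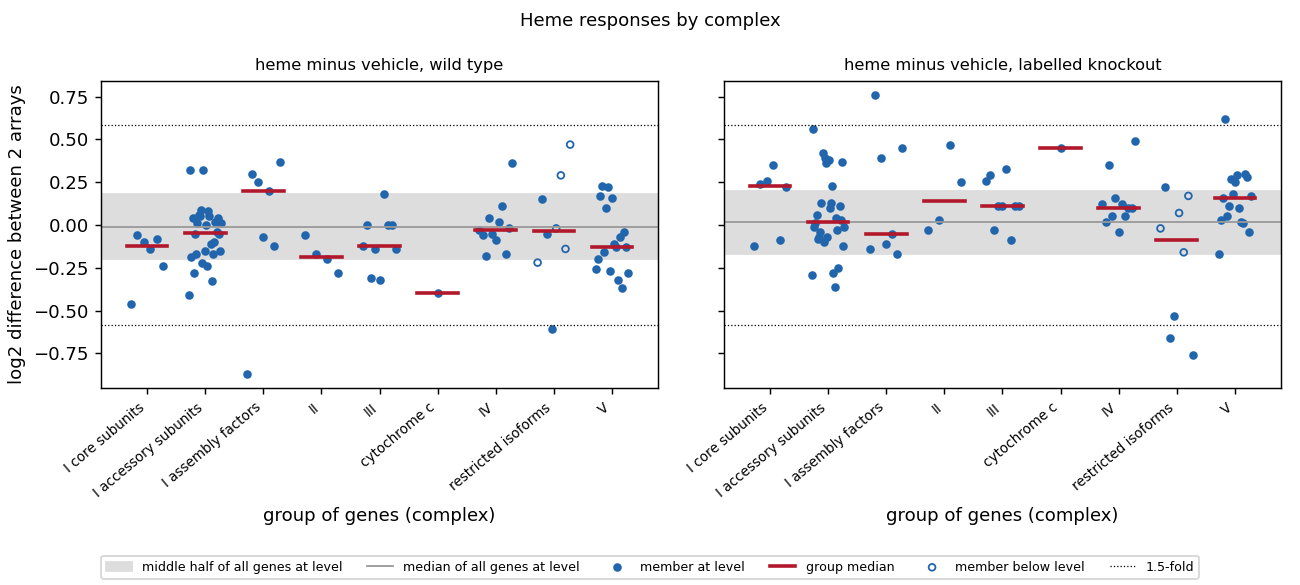
Log2 difference between heme and vehicle (vertical axis) for each member, grouped by complex (horizontal axis), in wild type (left) and labelled knockout (right). Points are genes, open points lie below the level, red bars are group medians, the grey band spans the quartiles of all genes at level and dotted lines mark 1.5-fold. The complex V median is -0.13 on the left and 0.16 on the right.

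Set side by side, the heme responses of the genotypes often had opposite signs. Of the 76 subunit genes, 37 were lower with heme in wild type but higher with heme in the labelled knockout (48.7%), and 5 the reverse (6.58%). Over all genes at level these shares were 21.5% and 18.1%. Another 18 were higher in both and 16 lower in both. The difference between the responses had a median of 0.17 over subunit genes, against 0.03 for genes at level and 0.07 for genes in the signal range of the members. For each gene it equals the genotype difference with heme minus that in vehicle, so it restates those comparisons and is no separate result. Of 87 members at level, 5 had a response at least 1.5-fold more positive in the labelled knockout, Cycs (0.85), Ndufaf1 (0.73), Sdhc (0.68), Atp5md (0.67) and Ndufa9 (0.61), where 6.27% of all genes at level did. Another 2, Ndufa4l2 (-1.23) and Cox6b2 (-0.60), had a more negative one, where 5.15% did. At the looser limit these counts were 24 and 2, against 18.5% and 14.8% of genes, and at 2-fold 0 and 1 (Ndufa4l2), against 1.17% and 0.879%. With 32 added to each signal, Ndufa4l2 (-0.50), Cox6b2 (-0.46), Ndufaf1 (0.48) and Ndufa9 (0.51) fell short of 1.5-fold, and Ndufa4l2 reached the level on the labelled knockout vehicle array alone. Ndufa9 also fell short with quantile normalization again (0.56) and lowess centring (0.55), and Atp5md with the mean of its probe sets (0.56).

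Some members moved the same way with heme in both genotypes. Ndufa4 was 1.28-fold higher in wild type and 1.40-fold higher in the labelled knockout, and Ndufab1 was higher by 0.32 and 0.36 on the log2 scale. Ndufa10 (0.32 and 0.56), the complex III core protein gene Uqcrc2 (0.18 and 0.33), and the ring subunit gene Atp5g2 (0.22 and 0.27) were also higher in both. Ndufb7 was lower in both (-0.33 and -0.36), as was Ndufa1 (-0.41 and -0.29).

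The assembly factors of complex I, which join the enzyme together and are not part of it, went their own way. Ndufaf1, a factor for the membrane arm, read 83.2 with vehicle and 45.6 with heme in wild type, and 73.9 and 67.2 likewise in the labelled knockout, so that the wild-type heme array alone was low. Ndufaf2, a paralog of the subunit Ndufa12 that binds a late assembly intermediate, read 70.9, 87.5, 66.4 and 112. Ndufaf3 (0.25 and 0.39) and Ndufaf7 (0.37 and 0.45) were higher with heme in both genotypes. Ndufaf5, which modifies the core subunit Ndufs7, was higher on both knockout arrays (41.6, 47.9, 61.2 and 59.1), 1.47-fold in vehicle. Ndufaf6 had the lowest heme response of the factors in the labelled knockout (-0.17; 32.7, 30.0, 38.6 and 34.2). With heme, 6 of 7 factors were higher in the labelled knockout, with a median of 0.19.

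Of the restricted isoforms, Cox4i2, Cox7b2, Cox8b and Cox8c read below the level on every array, between 6.44 and 26.9, whereas Cox8a, the widespread counterpart of Cox8b, read 1229, 1211, 1056 and 1133. Cox7a1, the heart and muscle isoform of subunit 7a, read 137 with vehicle and 89.7 with heme in wild type, and 121 and 84.1 likewise in the labelled knockout, lower with heme by 1.52-fold and 1.44-fold. Both heme arrays lay below both vehicle arrays. Its widespread counterpart Cox7a2 read 593, 602, 527 and 571, and the related Cox7a2l, which takes part in joining complexes III and IV, 1553, 1675, 1488 and 1543.

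Cox6b2, the testis isoform of subunit 6b, read 73.8 with vehicle and 71.2 with heme in wild type, and 125 and 79.5 likewise in the labelled knockout, where Cox6b1 read 4285, 4133, 3690.1 and 4134. Cox6a2, the muscle isoform of subunit 6a, read 62.6, 69.5, 60.6 and 70.8, and Cox6a1 read 3533, 3628, 3281 and 3402. Ndufa4l2, a hypoxia-inducible relative of Ndufa4, read 16.1, 22.3, 31.4 and 18.6 and reached the level on the labelled knockout vehicle array alone. With 32 added to each signal, neither Cox6b2 (0.57) nor Ndufa4l2 (0.40) remained past 1.5-fold in the vehicle comparison.

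Several members have near-identical copies elsewhere in the genome, and 18 of the 91 had more than 1 probe set. All probe sets of a gene had the same sign for at least 14 of 18 genes in each heme response. They did for at least 16 in the vehicle genotype comparison and at least 8 with heme in both cultures. These are lower bounds, since signs were taken after rounding and a difference without a sign was not counted as agreeing. With heme in both cultures this left out Atp5g2, Atp5l and Ndufb11, whose unrounded signals agreed in sign. It also left out Ndufb11 in the wild-type heme response, Atp5pb in the labelled knockout one and Uqcr11 in the vehicle genotype comparison. For Cycs, a second probe set gave heme responses of -0.62 in wild type and of 0.67 in the labelled knockout, against -0.40 and 0.45 for the brightest. The third, with signals between 14.9 and 21.4, gave 0.50 and 0.42, so the opposite responses of Cycs rest on the brighter probe sets. For Ndufc1 the probe sets disagreed in vehicle, at -0.02 and -0.62. Which copy each probe set measures is unknown here.

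Since the subunit genes were lower together, their promoters were searched for the motifs of factors known to drive respiratory genes. RefSeq promoter windows (GRCm38.p6), from 250 bases before to 50 after each gene start, matched 74 of 91 members by gene number, with 79 windows. The palindromic motif of nuclear respiratory factor 1 (NRF1) stood on either strand in 24.1% of member windows, against 9.92% of windows of genes at level and 4.60% of all windows. The ETS and GABP motif CCGGAAG was found in 22.8%, 17.5% and 8.86%, the YY1 motif AAGATGGCG in 8.86%, 2.97% and 1.40%, and the estrogen-related receptor motif TCAAGGTCA in 2.53%, 0.274% and 0.423%. The CCAAT box was found in 43.0%, 36.9% and 37.4%. Of the motifs of Bach1 and its competitors, TGANNNNGC was found in 43.0%, 42.8% and 41.3%, and the extended Maf recognition element in 0 of 79 member windows and 0.155% of all windows. Median GC content was 58.3% for member windows, 60.7% for genes at level and 52.7% for all.

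To show the NRF1 motif as it stands in different complexes, a 50-base stretch around a match is given for 1 member per complex. It is the member with the lowest vehicle genotype difference among those whose stretch lies within the window, wholly before the gene start. In complex III Uqcrc1 had a match, but no such stretch fitted around it, so none is shown. Capitals mark the motif, and all are from build GRCm38.p6 on the minus strand: Ndufs5 at chr4:123718255-123718304, Sdhd at chr9:50603899-50603948, Cox6a1 at chr5:115349091-115349140 and Atp5k at chr5:108434420-108434469.
Ndufs5: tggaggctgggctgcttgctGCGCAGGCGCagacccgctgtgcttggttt
Sdhd: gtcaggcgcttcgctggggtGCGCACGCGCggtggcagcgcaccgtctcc
Cox6a1: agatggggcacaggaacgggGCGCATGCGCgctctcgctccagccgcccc
Atp5k: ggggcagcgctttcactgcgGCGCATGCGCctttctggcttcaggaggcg

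The vehicle genotype differences of these 4 genes were -0.40, -0.56, -0.11 and -0.46. The longer Sdhd stretch is shown beside that of Ndufa4, whose signal went against the rest of complex IV. Both cover the 250 bases before the gene start on the minus strand of GRCm38.p6, Sdhd at chr9:50603850-50604099 and Ndufa4 at chr6:11907451-11907700. Capitals mark matches to NRF1 and then ETS in Sdhd, while no NRF1, ETS, YY1 or estrogen-related receptor motif occurs in the Ndufa4 stretch. The pair is an illustration and no test of these motifs. Cycs (-0.53 in vehicle) and Cox5b (-0.52) had no match to any of them either. Ndufa8 (0.34) and Ndufaf5 (0.56), both higher in vehicle, had an NRF1 match.
Sdhd: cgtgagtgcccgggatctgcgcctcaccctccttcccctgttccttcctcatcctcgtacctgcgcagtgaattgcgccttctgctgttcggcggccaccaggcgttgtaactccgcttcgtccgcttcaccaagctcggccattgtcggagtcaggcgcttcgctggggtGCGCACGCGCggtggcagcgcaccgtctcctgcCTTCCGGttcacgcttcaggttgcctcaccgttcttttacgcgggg
Ndufa4: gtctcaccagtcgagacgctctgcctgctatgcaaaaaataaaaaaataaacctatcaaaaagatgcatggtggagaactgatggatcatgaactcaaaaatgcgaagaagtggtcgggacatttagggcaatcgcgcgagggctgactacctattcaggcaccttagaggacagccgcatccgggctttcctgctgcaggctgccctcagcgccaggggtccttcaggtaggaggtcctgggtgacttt

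The members were split by motif to compare their responses. The median vehicle genotype difference was -0.17 for the 18 members with a match and -0.17 for the 56 without. For the ETS motif it was -0.22 for 18 with and -0.16 for 56 without, and for YY1 -0.23 for 7 and -0.17 for 67. It was -0.52 for the 2 members with the estrogen-related receptor motif, Atp5g3 and Sdhd, and -0.16 for 72 without. For TGANNNNGC it was -0.20 for 32 with and -0.16 for 42 without, and for CCAAT -0.17 for 33 and -0.16 for 41. A match describes the letters in these windows and is no measure of binding.

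Other genes of mitochondrial metabolism were described by lists. Enzymes of the TCA cycle and pyruvate entry, which supply the chain with NADH and succinate, had 14 of 18 genes lower in the labelled knockout in vehicle (median -0.12) and a median of 0.00 with heme, and 2 of 18 were lower by 1.5-fold in vehicle, where 4.31% of all genes at level were, Idh3a (58.6 and 32.5) and Pdhx (65.1 and 41.0). Their heme responses had medians of -0.10 in wild type and of 0.09 in the labelled knockout, so the list had the same signs as the subunit genes in both. The 77 mitochondrial ribosomal protein genes had medians of -0.09 in vehicle and 0.06 with heme between genotypes, and of -0.03 and 0.20 for the heme responses.

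The assembly factors outside the member list had 36 measured genes and a different pattern, higher with heme in both genotypes (medians 0.09 and 0.17) and without a shift in vehicle (0.02). Of 33 at level, 4 were higher by 1.5-fold with heme in the labelled knockout, where 5.03% of all genes at level were: Timmdc1 (64.5 and 113), Tmem126b (115 and 182), Coa5 (418 and 639) and Bcs1l (53.9 and 81.6), the last needed to insert the Rieske protein into complex III. Cox10 and Cox15, which make the heme a of complex IV, had responses of -0.16 and 0.09 in wild type and 0.19 and 0.17 in the labelled knockout.

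Glycolysis genes had heme responses opposite in median sign to those of the subunit genes. In wild type 11 of 16 were higher with heme (median 0.21), where 48.8% of genes at level were. In the labelled knockout 11 of 16 were lower with heme (median -0.17), against 47.7%. With heme in both cultures 14 of 16 were lower in the labelled knockout (median -0.19), against 47.8%. Of 15 at level, 1 was higher by 1.5-fold with heme in wild type, where 4.99% of all genes at level were. Another 1 was lower with heme in the labelled knockout, against 3.07%. Between genotypes with heme 0 were higher and 0 lower, against 3.38% and 3.43%.

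**Figure D5:**
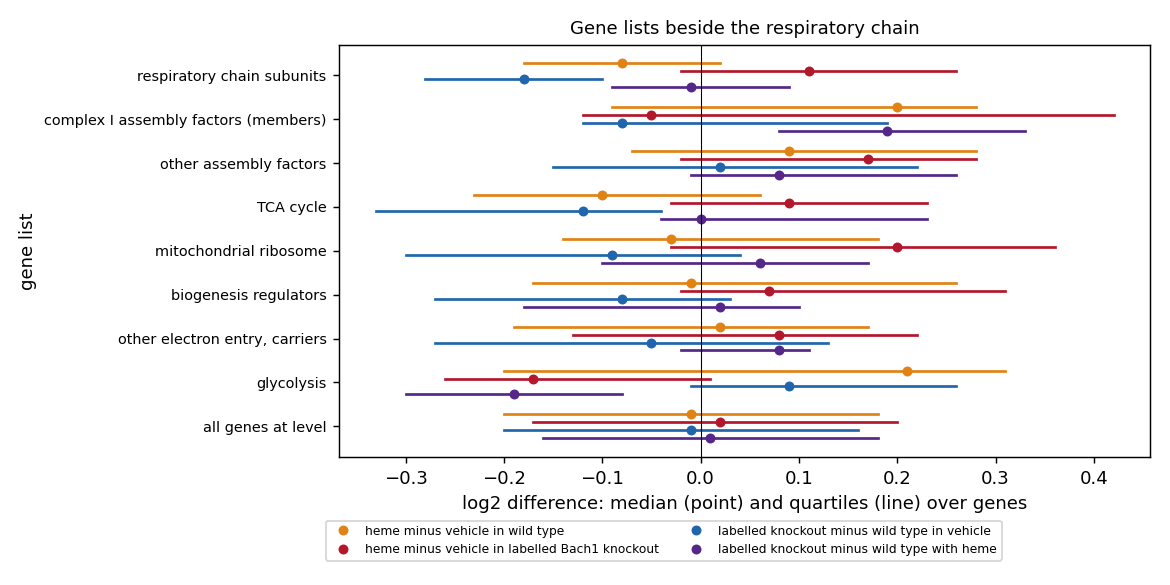
Median (point) and quartiles (line) of the log2 difference (horizontal axis) over the genes of each list (vertical axis), for the 4 comparisons of 2 arrays, in colour. The subunit genes lie lowest in vehicle, at -0.18, and glycolysis genes have medians of 0.21 for heme in wild type and -0.17 for heme in the labelled knockout.

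Among the regulators of mitochondrial biogenesis, 19 genes were measured and 13 were lower in the labelled knockout in vehicle (median -0.08). The coactivator Ppargc1b read 63.3 with vehicle and 56.3 with heme in wild type and 39.0 in labelled knockout vehicle, and was 1.62-fold lower in the labelled knockout in vehicle and 1.81-fold lower with heme. Myc, a driver of growth and mitochondrial genes, read 600.3, 429, 371 and 288, 1.62-fold lower in vehicle. With heme, Myc was 1.49-fold lower, just short of the rule. Of 16 regulators at level in vehicle, 2 were lower by 1.5-fold and 0 higher, against 4.31% and 3.25% of all genes at level. With heme, 1 of 18 was lower and 1 was higher, Tfb2m (1.57-fold), against 3.43% and 3.38% of genes. Nrf1 (67.4, 65.9, 73.8 and 69.8) and Gabpa (222, 236, 214 and 225), which encode the factors of the motifs above, stayed within 1.10-fold in every comparison of 2 arrays. The mitochondrial DNA packaging factor gene Tfam read 38.4, 33.6, 29.7 and 30.7. A list of other electron entry routes, ubiquinone synthesis and carriers had medians of -0.05 in vehicle and 0.08 with heme between genotypes, over 24 genes. The mitochondrially encoded subunits were not analysed here.

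Markers of cell types also differed between the arrays. Summed signals of the 12 dendritic cell markers were 10902 with vehicle and 8611 with heme in wild type, and 3734 and 3091 likewise in the labelled knockout. Most of each sum came from Cd74 (3399, 2879, 877 and 829), H2-Aa (2792, 2233, 751 and 725) and H2-Ab1 (2088, 1607, 656 and 538). Flt3, Zbtb46, Xcr1 and Cd209a lay below the level on every array, so the sums say little about them. Of 8 dendritic cell markers at level, 6 were lower by 1.5-fold in the labelled knockout under each treatment. Of all genes at level, 4.31% were that much lower in vehicle and 3.43% with heme. The subunit genes had medians of -0.18 in vehicle and -0.01 with heme. Neutrophil marker sums over 14 genes were 11173, 14551, 9370.4 and 11892, mostly from S100a8, S100a9 and Mmp8. With heme, 6 of 12 at level were higher by 1.5-fold in wild type, where 4.99% of all genes at level were. In labelled knockout cells 3 of 13 were, where 5.03% of genes were. Between genotypes in vehicle the sum was lower in the labelled knockout, yet 10 of 14 neutrophil markers were higher and 4 lower (median 0.11). Of 13 at level there, 4 were higher by 1.5-fold and 1 lower, against 3.25% and 4.31% of genes. Macrophage marker sums over 13 genes were 21708, 19463, 20827 and 20529.5. Of the 12 at level, 6 were lower by 1.5-fold with heme in wild type and 1 higher (Cd14), against 4.73% and 4.99% of genes. In the labelled knockout in vehicle 4 were lower and none higher, against 4.31% and 3.25% of genes. The sums of 7 erythroid markers lay between 166 and 192, and those of 12 fibroblast and endothelial markers between 364 and 519. The part of any of these cell types in the differences above was not tested. In RNA of mixed cultures, fewer cells of a type and less RNA per cell cannot be told apart.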

How the data were processed

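Expression had been measured on 1 mouse whole-transcript array per group. RNA was isolated with RNeasy columns and labelled as biotinylated cRNA with the Ovation PicoSL kit, per the labels' protocols. The deposited values are linear intensity after RMA by the authors, per the submitters' processing notes. The series' design text describes other cells and another kit and names ArrayStar; the sample labels were followed. No scaling was added.

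Values of 35556 probe sets were taken to log2. Of these, 21789 had a single gene symbol in the array annotation; 6 probe sets with several symbols were left out, 1 of Ndufs5, 3 of Cox7c and 2 of Ndufb4, and since Cox7c and Ndufb4 had no other probe set, these subunits of complexes IV and I are not among the members. The brightest probe set per gene gave 19938 genes. All 91 members had their gene number in the RefSeq table. Comparisons are differences between arrays with no test, since each group held 1 array. The level is the median of all values (log2 4.95). The members, lists, markers and motifs were chosen with earlier results of these data known. Named were the members at level with the largest rise and fall of each complex in each comparison of 2 arrays, every member past 1.5-fold, the catalytic subunits and the isoform pairs; others such as Ndufab1, Ndufa13, Ndufs5, Cox7b, Ndufaf3 and the genes of the other lists were picked after their values were seen. The difference of heme responses was taken over all 4 arrays. Alternatives were a limit of 0.32 (log2) or 2-fold, no filter or one at the 75th percentile, 32 added, quantile normalization again, lowess centring, the mean of probe sets and members at level alone. Differences were taken between arrays within a probe set, except in the alternative that averages probe sets. Signals of different probe sets were also used to pick the brightest, for the marker sums and for the signal range of the members. Isoform signals given side by side come from different probe sets and are no measure of their relative amounts. The calculation was tested on simulated data. Software was pandas 2.3.3 and numpy 2.4.6 in Python 3.11.15, with matplotlib 3.10.9 for plots and statsmodels 0.14.6 for lowess.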

Additional observations from a re-analysis of the deposited data

Results flagged for a closer look

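The heme responses of wild type and labelled knockout, in that order, had medians of opposite sign for complexes I to V and for the assembly factors, except that complex I accessory subunits (0.01) and complex IV (0.02) turned positive in wild type with lowess centring and accessory subunits turned to -0.03 in the labelled knockout with quantile normalization again. Median log2 responses were -0.12 and 0.23 for core and -0.05 and 0.02 for accessory subunits of complex I, 0.20 and -0.05 for complex I assembly factors, -0.18 and 0.14 for complex II, -0.12 and 0.11 for complex III, -0.03 and 0.10 for complex IV, -0.13 and 0.16 for complex V and -0.08 and 0.11 for the 76 subunit genes together. The 8 restricted isoforms had medians of -0.04 and -0.09. Of single members at level in both responses, Cycs alone went past 0.32 on the log2 scale in opposite directions, with -0.40 and 0.45; Ndufa4l2 did so too but was below the level in wild type. The difference was not tested, since each genotype had 1 array per treatment. Opposite heme responses and the vehicle genotype difference share both vehicle arrays, so they are not separate findings.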

How the results depend on the processing

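Over the scaling and filter alternatives, the median of all 91 members kept between -0.09 and -0.03 for heme in wild type, 0.05 and 0.10 for heme in the labelled knockout, -0.16 and -0.11 between genotypes in vehicle, 0.00 and 0.02 with heme, and 0.09 and 0.15 for the difference of responses. Members past the fold, in either direction, numbered 2, 4, 5, 0 and 7 in these comparisons in that order. They numbered 11, 20, 20, 5 and 26 at the looser limit of 0.32, and 0, 0, 0, 0 and 1 at 2-fold. With 32 added they were 0, 1, 2, 0 and 3. Without a filter on low signals 1 member differed between genotypes with heme, Cox8b, and with the filter at the 75th percentile 1 did for heme in wild type. That filter also ended the calls of Ndufaf1 and Ndufa4l2. No called member changed sign. Ndufa9 fell short in the difference of responses with quantile normalization again (0.56) and lowess centring (0.55), as did Atp5md with the mean of its probe sets (0.56). No paired analysis was possible because each group held 1 array and the labels give no replicate numbers; for the same reason no array could be left out. No background estimate came with the values, which leaves the weakest signals without a measure of detection.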
